A study of Mus musculus with 2 samples.

Results

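Ccl3 and Ccl4-low neutrophils are neutrophils from mouse muscle 9 h after injury with little RNA of 2 CC chemokines, Ccl3 and Ccl4. Mononuclear cells of the quadriceps of wild-type C57BL/6J mice were taken after barium chloride, which destroys muscle fibres, had been injected (100 µl at 1.2% w/v), and were cryo-preserved before droplet sequencing. Each time, 2 h and 9 h after injection, is covered by a single library. All cells came from injured muscle of the same genotype, and no uninjured library was analysed here. The number of animals behind each library is not given in the sources used here, so differences below have no replicate check and carry no test.

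Cells were taken as neutrophils when S100a8 and S100a9 together held at least 100 of every 10000 UMIs (unique molecules), when at least 3 of the 6 genes Csf3r, Il1r2, Hdc, Cxcr2, G0s2 and Retnlg had a UMI, and when Pdgfra, Cdh5, C1qa and Ccr2 had none. This gate held 3929 of 8147 kept cells at 9 h and 1587 of 4900 at 2 h. The members were the 9 h neutrophils with at most 2 UMIs of the granule genes Mmp8 and Ngp together and with Ccl3 and Ccl4 together under 100 per 10000 UMIs. They were 1257 of the 13047 kept cells of the series, or 32.0% of the neutrophils at 9 h (exact 95% binomial interval 30.5 to 33.5%). The other 9 h neutrophils were 2018 cells at or above the chemokine limit, called high cells below, and 654 granule-rich cells with more Mmp8 and Ngp. All 1587 gated cells of the 2 h library are called 2 h neutrophils. Intervals cover counting error only, and intervals of levels and ratios treat each UMI as independent, which makes them too short for a gene whose UMIs sit in few cells.

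Neutrophils are short-lived blood granulocytes that reach damaged muscle ahead of monocytes, kill microbes, clear debris and release chemokines. Ccl3 and Ccl4 are neighbouring genes whose proteins attract monocytes, macrophages and T cells. Their transcription, like that of the neutrophil attractant Cxcl2, is switched on by NF-kB, which is freed when its inhibitors are degraded after stimulation by IL-1, TNF or Toll-like receptor ligands. Stefin A proteins, to which Cstdc4 belongs, are small inhibitors of cysteine proteases, and mouse neutrophils express several copies from a gene cluster.

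The members were read from 1 gene pair on chromosome 11 (mm10): Ccl3 (ENSMUSG00000000982, 83647844 to 83649355, minus strand) and Ccl4 (ENSMUSG00000018930, 83662584 to 83664683, plus strand). RefSeq promoter sequences (GRCm38.p6, the build that mm10 names) held 1 of these 2 genes, Ccl3, and all of the 5 genes that label the cells. The 250 bases before the RefSeq start are shown for Ccl3 (chr11:83649379-83649628, minus strand), which chose the cells, and for Cxcl2 (chr5:90903649-90903898, plus strand), a chemokine that was not used by the rule and whose level is compared with the pair below. Capitals mark GGGNNNTTCC, a form of the NF-kB motif, searched on both strands.
Ccl3: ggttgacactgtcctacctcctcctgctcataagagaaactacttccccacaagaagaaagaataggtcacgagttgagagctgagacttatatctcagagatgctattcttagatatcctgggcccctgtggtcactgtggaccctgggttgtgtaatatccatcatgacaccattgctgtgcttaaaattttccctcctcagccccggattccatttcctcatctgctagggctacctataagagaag
Cxcl2: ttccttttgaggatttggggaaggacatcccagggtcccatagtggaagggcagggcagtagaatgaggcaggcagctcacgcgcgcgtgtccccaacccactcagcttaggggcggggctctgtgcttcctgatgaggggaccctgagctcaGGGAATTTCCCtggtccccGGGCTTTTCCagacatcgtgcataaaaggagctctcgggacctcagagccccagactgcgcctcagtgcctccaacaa
Cxcl2 held 3 matches, which begin 97, 96 and 78 bases before the start, and the first 2 of them overlap. Ccl3 held none in this window. Of 32851 promoter windows of this length, 4.65% held the motif. A match is a description of letters, not a binding site.

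The promoters of 3 stefin A genes are shown because a division among the members, described below, ran along this family: Cstdc4 (chr16:36183962-36184211), Stfa2l1 (chr16:36156561-36156810) and Stfa1 (chr16:36276898-36277147), all on the plus strand. Capitals mark the longest run of bases that the 3 share.
Cstdc4: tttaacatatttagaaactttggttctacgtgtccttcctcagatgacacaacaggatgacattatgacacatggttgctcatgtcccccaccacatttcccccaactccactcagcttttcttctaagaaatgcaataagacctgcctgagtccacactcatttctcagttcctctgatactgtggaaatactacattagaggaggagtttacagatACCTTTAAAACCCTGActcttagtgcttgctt
Stfa2l1: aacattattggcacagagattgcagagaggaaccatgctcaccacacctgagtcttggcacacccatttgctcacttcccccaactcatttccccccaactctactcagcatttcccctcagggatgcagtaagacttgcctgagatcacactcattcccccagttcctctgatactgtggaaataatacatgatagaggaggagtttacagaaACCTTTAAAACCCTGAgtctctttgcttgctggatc
Stfa1: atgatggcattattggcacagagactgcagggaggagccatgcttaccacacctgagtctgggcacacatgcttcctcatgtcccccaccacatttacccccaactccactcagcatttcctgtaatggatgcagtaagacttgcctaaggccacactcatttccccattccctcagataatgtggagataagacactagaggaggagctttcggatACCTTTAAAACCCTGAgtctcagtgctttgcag
The shared run of 16 bases begins 32, 36 and 33 bases before the start. It was in 6 of the 32851 windows (0.0183%), those of Cstdc3, Cstdc4, Gm7260, Stfa1, Stfa2 and Stfa2l1. Over the 250 aligned bases Cstdc4 was 78.4% identical to Stfa2l1 and 76.4% to Stfa1, and Csta2 was 55.6 to 58.8% identical to the other members of the family with a promoter in the table.

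The kept cells held 27598413 UMIs at 2 h and 35127600 at 9 h. The 2 libraries shared 20 cell barcodes, of which 4 were among the members, 4 among the 2 h neutrophils and none in both. Median depth was 1540 UMIs and 610 genes per member, 1710 UMIs and 612.5 genes per high cell, and 2021 UMIs and 756 genes per 2 h neutrophil. Median mitochondrial shares were 0.503%, 0.458% and 0.555%. Levels are given as CPM, the UMIs of a gene summed over a group and taken per 1e+06 UMIs of that group.

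RNA of other cell types differed between these groups. The 7 fibro-adipogenic progenitor (FAP) markers summed to 1193 CPM in the members, 376 in the high cells and 1477 in the 2 h neutrophils, with Pdgfra, like Cdh5, C1qa and Ccr2, at 0 by the gate. The 3 haemoglobin genes summed to 507, 18.7 and 3.39 CPM, and a single member held 1120 of these UMIs. Endothelial (48.0, 51.1 and 31.3 CPM), macrophage or monocyte (76.2, 64.7 and 62.7) and B-cell markers (7.62, 5.48 and 41.2) were below the FAP sum in each group. The T or NK, mast, eosinophil, muscle and platelet lists each stayed under 20 CPM. In all, 56 members (4.46%), 60 high cells (2.97%) and 134 2 h neutrophils (8.44%) held at least 5 UMIs of these lists or of 4 MHC class II genes. Those 56 members held 11.7% of the members' UMIs. Where results below rest on such cells, levels are also given with these cells left out of each group.

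The label was checked against its 5 markers. The G-CSF receptor Csf3r was at 724 CPM (95% interval 689 to 760) in the members, 593 in the high cells and 1254 in the 2 h neutrophils. Cstdc4 was at 3019, 3843 and 873 CPM. Retnlg, a resistin-like secreted protein, was at 4029, 3492 and 4594 CPM. Cd177, a surface protein of neutrophils, was at 312, 386 and 21.7 CPM. The formyl peptide receptor Fpr1 was at 393, 505 and 263 CPM. All 5 were present in the members. None of the 5 differed more than 2-fold between members and high cells, where 1.6% of all measured genes were higher by that fold and 0.0873% lower. Cstdc4, Cd177 and Fpr1 had a lower level in the members, and Csf3r and Retnlg a higher one, which with TMM scaling was a log2 difference of -0.01 and -0.09. The markers name neutrophils, and none of them set the members apart from the high cells by the fold used here. Csf3r and Retnlg were also used by the gate.

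The chemokine limit cut a continuous range of cells. The pair's median was 44.98 per 10000 UMIs among members (10th to 90th percentile 6.11 to 87.8), 253 in high cells and 13.6 in 2 h neutrophils. Only 101 members (8.04%) had no UMI of either gene. There were 104 members at 90 to 100 per 10000 and 94 high cells at 100 to 110. Across that edge, on the inner and outer side, Ccl3 was at 6545 and 6235 CPM, Ccl4 at 2964 and 4241, Cxcl2 at 44848 and 49185, Retnlg at 5013 and 3503, Cstdc4 at 3139 and 3339, and Cd177 at 338 and 338. The members are thus one end of a range, cut at a fixed level.

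**Figure D1:**
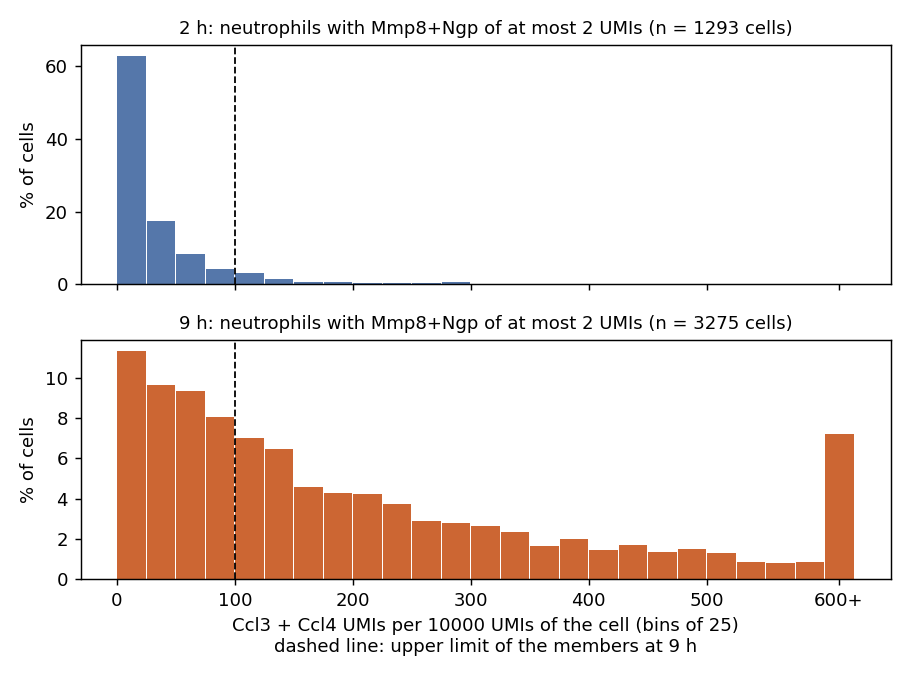
Share of neutrophils low in Mmp8 and Ngp (y axis, percent of cells) by Ccl3 and Ccl4 UMIs per 10000 UMIs of the cell (x axis, bins of 25, with all cells from 600 in the last bin), at 2 h (1293 cells) and 9 h (3275 cells). The dashed line is the limit of 100, which 92.7% of the 2 h cells and 38.4% of the 9 h cells fell below, with no gap in either library.

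At 2 h the same low rule took most neutrophils. It held for 1198 of 1587 cells (75.5%, exact interval 73.3 to 77.6%), against 32.0% at 9 h. Among cells low in Mmp8 and Ngp the shares were 92.7% (91.1 to 94.0%) at 2 h and 38.4% (36.7 to 40.1%) at 9 h. Cells that pass one threshold at both times are not thereby in the same state, and their other genes are compared further on. Depth differed between the libraries, and after thinning every cell to 1000 UMIs the 9 h share was 29.7%. The 2 h share after thinning is not given, so the 2 times are not compared at equal depth.

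Low meant low and not absent, as the values that chose the cells show. Ccl3 was at 3369 CPM (3294 to 3446) in the members, 14125 in the high cells, 8265 in the granule-rich cells and 1729 in the 2 h neutrophils. Ccl4 was at 1393 CPM (1344 to 1443), 18425, 9581 and 1345 CPM. Against all 2 h neutrophils, which the rule does not cap, the members' Ccl3 was higher and their Ccl4 did not differ beyond counting error. The 2 h neutrophils under the same low rule had less of both, with Ccl3 at 1378 and Ccl4 at 739 CPM. After thinning to 1000 UMIs per cell, 82.1% of members had a Ccl3 UMI and 43.7% a Ccl4 UMI, against 98.0% and 90.1% of high cells and 50.4% and 29.5% of 2 h neutrophils. Thinning left out 120 members, 110 high cells and 74 2 h neutrophils as too shallow, and the unthinned shares of members were 85.6% and 50.8%. FAP cells of the 9 h library, which should lack both genes, gave thinned shares of 1.18% and 2.59% at a median of 7843 UMIs. Endothelial cells gave 1.71% and 4.78% at a median of 2146 UMIs. The members' Ccl3 and Ccl4 were thus above the level that free RNA gave in those cells.

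The make-up of the pair differed as well as its amount. Ccl4 made 29.3% of the pair's UMIs in the members (28.4 to 30.1%), 56.6% in the high cells, 53.7% in the granule-rich cells and 43.8% in the 2 h neutrophils. Within the members it lay at 26.5% in cells under 10 per 10000, at 23.1%, 26.1% and 30.8% in the next bands, and at 30.4% at 75 to 100. Beyond the limit it was 42.0% at 100 to 150, 48.3% at 150 to 300 and 61.4% above 300. The 2 h library ran from 22.4% under 10 per 10000 to 63.1% above 300, with 50.4% at 75 to 100 and 42.2% at 100 to 150 out of that order. Since the sum of the pair chose the cells, these shares carry no test. Cells were also chosen on a random 50% of their UMIs, and the pair was read in the rest. The share was then 31.5% (30.4 to 32.7%) in 1274 low cells and 56.9% in 2001 high cells. It ran from 25.8% in the lowest band to 61.1% in the highest. These cells were still chosen on the pair, so this reading removes shared counting error only and gives no independent support.

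**Figure D2:**
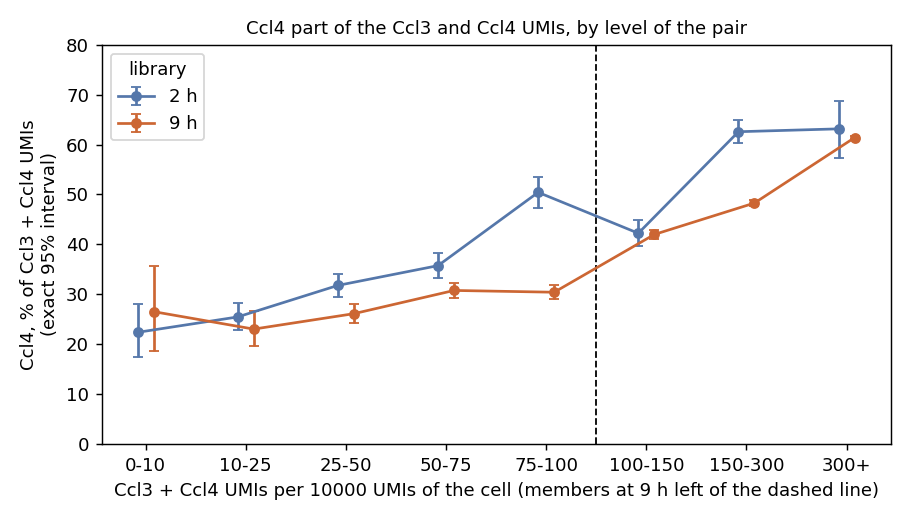
Ccl4 as a percent of the UMIs of Ccl3 and Ccl4 (y axis) in 8 bands of their summed level per 10000 UMIs (x axis), at 2 h and 9 h, with exact 95% binomial intervals. At 9 h the share lay between 23.1% and 30.8% in the 5 bands below the limit of 100 and reached 61.4% above 300.

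Outside the pair, members and high cells were alike in most genes by the fold used. Of 3436 genes with a mean of at least 20 CPM, 55 were over 2-fold higher in the members (1.6%) and 3 were over 2-fold lower (0.0873%), and the median log2 difference over all of them was 0.14. These 2 groups are cells of 1 library divided by Ccl3 and Ccl4, so the counts describe them with no test. The 3 lower genes were Ccl3, Ccl4 and Serpinb2, a plasminogen activator inhibitor, at 5.83 and 34.4 CPM. Serpinb2 had only 13 UMIs in 5 members, 7 of them in 1 cell. In 54 of the 55 higher genes, most of the members' UMIs lay in the 56 cells with RNA of other types. Without those cells 1 gene stayed over 2-fold higher, R3hdm4 (83.8 and 35.2 CPM), and 4 were lower, Inhba among them (82.8 and 183 CPM), which encodes the beta A subunit of activin A. MHC class II was an example: Cd74 was at 504 CPM in the members and 72.0 in the high cells, and at 52.8 and 57.4 CPM without the cells that carried other types' RNA. Class II genes were part of the list that chose the cells to leave out, so their own values there are fixed in part by that choice.

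The genes named as lowest in the members against the high cells, leaving out those of the rule, differed by less than 2-fold. Ccrl2, an atypical receptor that binds chemerin, was at 1291 CPM in the members and 2348 in the high cells, 1.82-fold lower (1.74 to 1.90). The IL-1 receptor antagonist gene Il1rn was at 2460 and 3876 CPM, and IL-1 alpha (Il1a) at 143 and 261. Hcar2, a receptor for ketone bodies and niacin, was at 1867 and 3252 CPM. The inflammasome sensor Nlrp3 was at 1044 and 1610 CPM and tissue factor (F3), which starts coagulation, at 54.3 and 103. Coagulation factor X (F10) was at 126 and 205 CPM. The anti-apoptotic gene Bcl2a1b was at 958 and 1437 CPM, Cd274, which encodes PD-L1, at 117 and 192, and the signalling protease Malt1 at 272 and 425. Slc20a1, Ralgds, Dock10 and Arid5b completed the named lower genes, at 147 and 266, 77.1 and 136, 98.2 and 160, and 261 and 406 CPM. All of these had lower levels in the members, none of them by as much as 2-fold.

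Few genes were higher in the members with a margin that was kept when the cells with other types' RNA were left out. The glucose transporter Slc2a3 was at 284 CPM in the members and 166 in the high cells, and at 304 and 172 without cells that carried other types' RNA. Isg15, a ubiquitin-like protein induced by interferon, was at 166 and 93.1 CPM, and at 174 and 95.5 after the same removal. Ctla2a, at 140 and 76.4 CPM, had 142 of its UMIs in 1 member, and it was not higher when the 5% of cells with the most UMIs were left out.

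The gene lists gave the same order of sizes. The chemokine list also held the receptor gene Ccrl2. Of its 12 genes measured, 1 was over 2-fold higher and 2 lower (the pair). Their median log2 difference was -0.31, against 0.14 over all genes and -0.19 over the 10 genes other than the pair. The higher gene was Ccl17 (57.4 and 0.498 CPM), with 124 of its 128 UMIs in the cells that carried other types' RNA, and it was at 2.03 CPM in the members without them. Of 28 genes of NF-kB and its feedback none passed 2-fold, with a median of -0.26. Of 14 cytokine genes none passed, with a median of -0.26, and of 22 survival genes none, with -0.18. The interferon list had 14 genes measured, none past 2-fold and a median of 0.13, and the 44 neutrophil identity genes had none and 0.10. With TMM scaling the median over all genes was -0.12 in place of 0.14. The interferon and identity medians were then -0.10 and -0.19, so their sign depends on the scaling, while the chemokine, NF-kB, cytokine and survival medians stayed below 0 and below that of all genes.

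The same differences ran within the members. From the band under 10 per 10000 through 75 to 100 to that above 300, Cxcl2 went from 34523 to 44584 to 71158 CPM. Ccrl2 was at 814, 1659 and 2810 CPM, and Il1rn at 1789, 2790 and 4392. Bcl2a1b was at 618, 1091 and 1574 CPM, Hcar2 at 1560, 2127 and 3696, and the ferritin heavy chain gene Fth1 at 36575, 46178 and 51118. Each of these was higher at the top of the members than at their bottom, with small dips between bands in Cxcl2 and Bcl2a1b. In the other direction Retnlg was at 5429, 4278 and 3547 CPM, though its lowest level among the members, 3472, was at 50 to 75, and the IL-1 decoy receptor Il1r2 at 3761, 3053 and 2321. Csf3r was at 841, 699 and 532 CPM, with its lowest level among the members, 678, at 50 to 75. Retnlg, Il1r2 and Csf3r were also used by the gate. Of the other gate genes, Cxcr2 was at 939, 764 and 619 CPM, Hdc at 3224, 3082 and 3079, and G0s2 at 3643, 3373 and 5216. Isg15 was at 257, 148 and 86.0 CPM, and its lowest level among the members, 131, was at 10 to 25. The peptidoglycan recognition gene Pglyrp1 was at 186, 91.8 and 81.2 CPM. Median depth lay between 1401.5 and 1618 UMIs in the 5 bands of the members, which held 186, 185, 316, 306 and 264 cells. Each band is a sum over cells of the same library, and the pair's own UMIs are part of the totals.

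**Figure D3:**
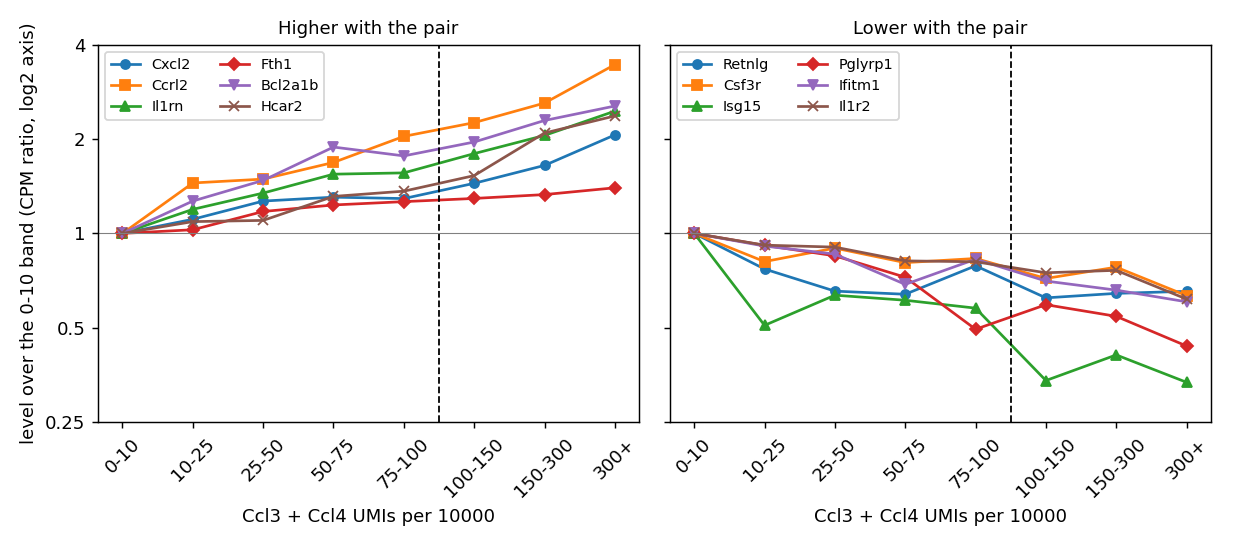
Level of 12 genes relative to the band under 10 per 10000 (y axis, ratio of CPM on a log2 axis) over 8 bands of Ccl3 and Ccl4 at 9 h (x axis), with genes of higher level toward the high cells on the left and of lower level on the right. The dashed line marks the limit of 100 per 10000. From the lowest to the highest band Cxcl2 went from 34523 to 71158 CPM and Il1r2 from 3761 to 2321. From the band just below the limit to the band just above it, Cxcl2 went from 44584 to 49868 CPM and Il1r2 from 3053 to 2816. Retnlg, Csf3r and Il1r2 on the right were also used by the gate.

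The members were also divided by whether they held a Cstdc4 UMI. Such a UMI was found in 554 members (44.1%, 41.3 to 46.9%) and none was found in the other 703. Other genes were likewise found in only part of the members, Ccl4 in 50.8% and Retnlg in 67.3%. Among the 554 cells the median was 8 UMIs and the highest 82, and 83 cells had exactly 1. Cells with and without it had median depths of 1554 and 1528 UMIs and median pair levels of 45.8 and 44.6 per 10000. So neither depth nor the pair's level differed much between them. In the 9 h library 0.550% of FAP cells and 2.05% of endothelial cells had a Cstdc4 UMI after thinning, against 41.1% of members at the same depth.

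Other stefin A genes went with Cstdc4. Stfa2l1 was at 1528 CPM in members with a Cstdc4 UMI and 219 in members without, Csta2 at 199 and 17.8, and Stfa1 at 120 and 5.93. Csta3 was at 103 and 3.39 CPM, Cstdc5 at 50.5 and 0.847, and Stfa2 at 33.3 and 1.69. At least 1 of Stfa2l1, Csta2, Stfa1 and Csta3 was found in 67.1% (63.1 to 71.0%) of the cells with Cstdc4 and in 13.2% (10.8 to 16.0%) of those without. Paralogs of this family share sequence, so reads of one copy can be counted to another and the split between copies is uncertain. Of 3638 measured genes, 18 were over 2-fold higher (0.495%) and 14 lower (0.385%) in the cells with Cstdc4. The higher ones held 6 stefin genes, Cstdc4 included, and 3 haemoglobin genes of which 1 cell held nearly all UMIs. Those lower were led by Saa2, Saa3 and Saa1, serum amyloid A genes, whose UMIs came from 6, 18 and 12 members, and held the chemokine genes Ccl2 and Ccl7. With cells that carried other types' RNA left out, none of those 14 genes was over 2-fold lower (Ccl2 at 70.1 and 72.0 CPM), and 3 others were. Of the 18 higher genes 8 stayed, namely the 6 stefin genes, Tgm1 and Ctla2a, and Stfa2 was added. Transglutaminase 1 (Tgm1), a cross-linking enzyme, was at 47.6 and 15.2 CPM over 55 cells.

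The other neutrophil genes given here differed by less than 2-fold between the 2 kinds of member. Retnlg was at 4184 CPM with Cstdc4 and 3891 without, Csf3r at 712 and 734, Fpr1 at 416 and 372, and Cxcl2 at 41817 and 42614. Cd177 was higher with Cstdc4, at 353 (318 to 391) and 274 (245 to 306). Ccl3 was at 3502 and 3251 CPM and Ccl4 at 1422 and 1367. The share of cells with a Cstdc4 UMI was 40.3% in the lowest band of the pair, 45.5% at 75 to 100 and 51.8% above 300. It was 50.6% in high cells, 46.6% in granule-rich cells and 24.6% in 2 h neutrophils, so the division was not particular to the members. Since Cstdc4 itself split the cells, none of this was tested.

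**Figure D4:**
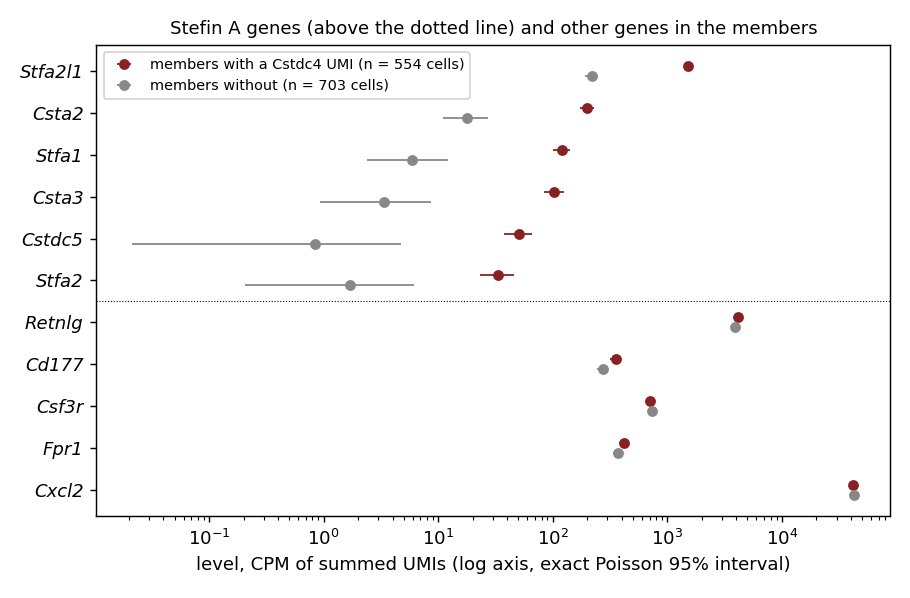
Levels (CPM, log axis) of 6 stefin A genes and of 5 other neutrophil genes in the 554 members with a Cstdc4 UMI and the 703 without, with exact 95% Poisson intervals. Stfa2l1 stood at 1528 against 219 CPM while Cxcl2, Retnlg, Csf3r, Cd177 and Fpr1 differed by less than 2-fold.

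Against the 2 h neutrophils the members differed in many more genes. Of 3587 genes measured, 210 were over 2-fold higher (5.85%) and 210 over 2-fold lower (5.85%), with a median log2 difference of -0.0020. Each time is 1 library, so time, animals and library preparation cannot be told apart. Of the 210 higher genes, 193 were also over 2-fold higher against the 2 h neutrophils with at most 2 UMIs of Mmp8 and Ngp, and 188 against the 1198 that passed the same low rule. For the 210 lower genes these numbers were 194 and 198. Without cells that carried other types' RNA, 163 of the higher and 194 of the lower genes were again past 2-fold.

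Among the label genes, Cd177 (chromosome 7, 24743983 to 24760311) was 14.3-fold higher in the members (11.3 to 18.4) and Cstdc4 (chromosome 16, 36184212 to 36188111) 3.46-fold (3.31 to 3.61). After thinning, 21.7% of members and 1.92% of 2 h neutrophils had a Cd177 UMI. Fpr1 was 1.49-fold higher, and Csf3r 1.73-fold lower (1.64 to 1.84). Retnlg (chromosome 16, 48872621 to 48874496) was 1.14-fold lower against all 2 h neutrophils, but higher (4029 and 3375 CPM) against those under the same low rule. Granule-rich cells, which the low rule leaves out, had Retnlg at 10877 CPM at 9 h.

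The named genes with the largest ratios, by a rule that leaves out haemoglobin genes and genes below 20% of their level over the whole library, were at low levels at 2 h. Chil3, a chitinase-like secreted protein, was at 286 CPM in the members and 10.4 at 2 h, 27.3-fold higher (19.6 to 39.2). F10 was at 126 and 4.80 CPM, 26.2-fold higher (16.1 to 45.7), and the inhibitory IgG receptor Fcgr2b at 154 and 8.19, 18.8-fold higher (12.8 to 28.5). These were not evenly spread: a Chil3 UMI was found in 14.6% of thinned members and 0.463% of 2 h neutrophils, and an F10 UMI in 8.18% and 0.330%. The formin Fmnl2 was at 230 and 13.0 CPM, and the transcription factor gene Dach1 at 127 and 8.47. Ltb4r1, the receptor for the attractant leukotriene B4, was at 219 and 27.7 CPM, 7.91-fold higher. Tgfb1, the cytokine TGF-beta 1, was at 269 and 42.9 CPM, 6.28-fold higher. Bcl2a1b was at 958 and 131 CPM, 7.33-fold higher (6.62 to 8.12), and Bcl2a1a at 212 and 19.2. Bcl2a1 genes are near-identical copies, so their separate counts are uncertain. Schip1, Ceacam10, Mrpl52, Csta2 and Ctla2a were the other named genes, 6.87 to 13.4-fold higher, the last with 142 of its 313 UMIs in 1 member.

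**Figure D5:**
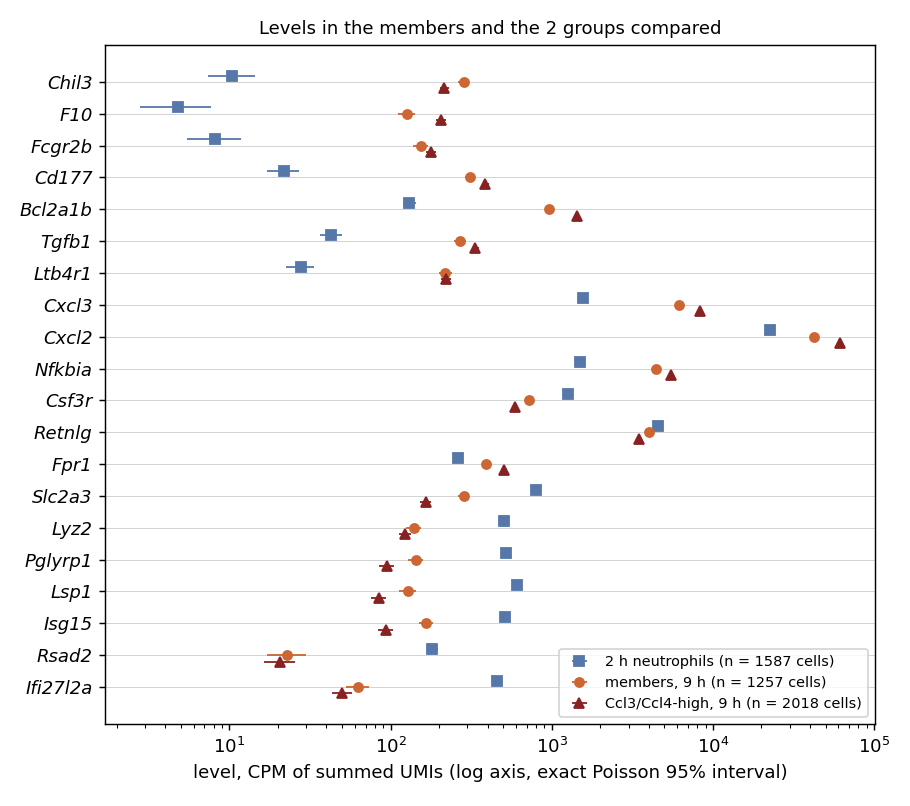
Levels (CPM, log axis) of 20 named genes in the 2 h neutrophils, the members and the high cells, with exact 95% Poisson intervals. For genes such as Chil3, F10, Fcgr2b and Cd177 the members lie near the high cells and far from the 2 h neutrophils, and Isg15, Rsad2, Lyz2 and Lsp1 lie lower at 9 h than at 2 h.

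Many genes of the chemokine and NF-kB lists had higher levels in these low cells than at 2 h. Of 12 chemokine genes measured, the pair included, 8 were over 2-fold higher and none lower (median log2 difference 1.55). All 8 were among the 10 genes other than the pair (median 1.81). They were Ccl2, Ccl7, Ccl9, Ccl17, Cxcl1, Cxcl3, Cxcl5 and Ccrl2, the last a receptor gene that the list also held. With cells that carried other types' RNA left out of both groups, 9 genes other than the pair were measured and 6 were over 2-fold higher (median 1.29), without Ccl7 and Ccl17. Leaving out cells does not take free RNA out of the cells that remain. Cxcl3, a ligand of the neutrophil receptor CXCR2, was at 6123 CPM in the members, 8369 in the high cells and 1566 at 2 h, 3.91-fold higher than at 2 h (3.79 to 4.04). Cxcl2 (chromosome 5, 90903871 to 90905938) was at 42239, 61352 and 22603 CPM, 1.87-fold higher (1.85 to 1.89). Ccl2 was at 351 CPM in the members and 50.3 at 2 h, and at 71.1 and 24.5 with those cells left out. Cxcl5 was at 333 CPM in the members, and 98.6 with them left out, while the 2 h neutrophils held 2 UMIs of it. In the 9 h library Cxcl5 was at 78.5 CPM in endothelial cells and 13539 in FAP cells, and Ccl2 at 46.1 and 10183. After thinning, 9.15% of members and 7.17% of those endothelial cells had a Cxcl5 UMI. How much of the members' Cxcl5 and Ccl2 was free RNA was not tested. Of 28 genes of NF-kB and its feedback, 12 were over 2-fold higher and none lower (median 0.86). The inhibitor gene Nfkbia was at 4415 CPM against 1496 at 2 h, Ier3 at 3023 against 949, and the deubiquitinase gene Tnfaip3 at 525 against 196. The subunit gene Nfkb1 was at 374 against 116 CPM and the mitochondrial dismutase gene Sod2 at 302 against 56.2. Nfkbia, Ier3, Tnfaip3 and Sod2 stood in the members between the 2 h neutrophils and the high cells (5460, 4134, 745 and 385 CPM in the latter), and Nfkb1 was level with the high cells (376 CPM).

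Of 13 cytokine genes, 6 were over 2-fold higher than at 2 h and none lower (median 0.99). Il1rn was 2.61-fold higher (2.50 to 2.72), Il1a 6.94-fold, Tnf 2.47-fold and Csf1, the macrophage growth factor, 2.07-fold. Il1b was at 9062 CPM in the members and 8169 at 2 h, 1.11-fold higher. Of 22 survival and death genes 8 were higher and none lower (median 0.49), while the anti-apoptotic Mcl1 stood at 3918 and 4010 CPM. Of 26 genes of itaconate, iron and stress, 4 were higher and 1 lower. Fth1, which stores iron, was at 42553 and 19638 CPM, 2.17-fold higher, and Txn1 (thioredoxin) at 504 and 1213. Acod1, which makes itaconate, was at 2221 and 3496 CPM. Among secreted products, 5 of 22 were higher and 1 lower. Osteopontin (Spp1) was 2.74-fold higher and Lrg1 2.65-fold. Of 30 glycolysis and hypoxia genes, 2 were higher and 1 lower, near the 5.85% of all genes in each direction. They were Hilpda (436 and 105 CPM), uridine phosphorylase Upp1 (245 and 58.2) and Slc2a3 (284 and 803).

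Interferon-stimulated genes were the main group that was lower. Of 21 measured, 14 were over 2-fold lower and 1, Slfn1, higher (541 and 235 CPM), with a median log2 difference of -1.21. The antiviral gene Rsad2 was at 22.9 CPM in the members and 181 at 2 h, 7.93-fold lower (5.96 to 10.8). Oas3, which senses double-stranded RNA, was at 16.6 and 117 CPM, Rtp4 at 29.1 and 164, and Isg15 at 166 and 514. Ifi27l2a, which the list did not hold, was at 62.8 and 461 CPM. Cells with at least 100 UMIs of the list per 10000 made up 20 members (1.59%, 0.975 to 2.45%), 26 high cells (1.29%) and 126 2 h neutrophils (7.94%, 6.66 to 9.38%). The median cell had 20.7, 17.8 and 32.6 per 10000, so the lower level was not only in the richest cells.

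Other lower genes belonged to several roles. Lysozyme (Lyz2), an antibacterial enzyme, was at 139 CPM in the members and 509 at 2 h, 3.66-fold lower (3.24 to 4.14), and Pglyrp1 at 143 and 520, 3.63-fold lower. Lsp1, an actin-binding protein of leukocytes, was at 128 and 611 CPM, 4.78-fold lower (4.22 to 5.43). Pmvk, an enzyme of the mevalonate pathway, was at 16.1 and 226 CPM, 14.0-fold lower (10.0 to 20.1). Scnn1a, a sodium channel subunit, was at 19.7 and 121 CPM. Hdac4, Arhgap15, Unc93b1, Prr13, Smchd1 and R3hdm4 were the other named lower genes, at 69.9, 33.2, 31.8, 126, 166 and 79.8 CPM in the members and 300.5, 141, 133, 511, 636 and 296 at 2 h. Of 14 genes measured from the granule list, 4 were higher: Chil3, Olfm4, Cd63 and Ltb4r1, the last a receptor gene and not a granule gene. Another 4 were lower (Ngp and Mmp8, which the rule used, Lyz2 and Anxa1). Of 30 adhesion genes, 3 were higher and 3 lower, with Itgal, the LFA-1 alpha chain, at 133 and 350 CPM. Of 33 immediate early genes 1 was higher and 2 were lower, Fos (799 and 1911 CPM) and Fosb (420 and 926). The 45 identity genes had 3 higher and 4 lower and a median of -0.19. Over all genes 5.85% passed 2-fold in each direction, and the adhesion, immediate early and identity counts were not far from that share.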

How the data were processed

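The values are UMI counts for each gene in each barcode, deposited by the authors. Cell Ranger 5.0.0 and mm10 are named in the file headers and the submitters' processing notes. There were 5729 barcodes (28635763 UMIs) in the 2 h matrix and 8790 (36042307 UMIs) in the 9 h matrix. Cells with at least 200 genes, 500 UMIs and at most 20% mitochondrial UMIs were kept (4900 and 8147). The members and the gene lists were chosen with earlier results of these data known, so no pattern given here is independent support.

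UMIs were summed per group and scaled to CPM. Log2 ratios used a pseudocount of 10 CPM, and genes with a mean of at least 20 CPM over the compared groups counted as measured. A difference was counted past 2-fold by size alone, because a single library per time allows no test over samples. Levels have exact Poisson, shares Clopper-Pearson and ratios exact conditional binomial intervals, all at 95%. Thinned shares used 1000 UMIs per cell. The ratio and count steps were tested on simulated data. No doublet caller was used. Leaving out the 5% of cells with the most UMIs, and cells with at least 5 UMIs of 55 other-cell genes, was used in its place, and the second of these was added after seeing the data, as was choosing cells on a random 50% of their UMIs.

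Genes were named from each comparison by a fixed rule: at least 100 CPM in 1 group, no less than 20% of the gene's level across the whole kept library, and the 15 highest and 15 lowest log2 ratios, leaving out mitochondrial, ribosomal protein, haemoglobin and unnamed genes and those of the rule, plus members of 18 gene lists. Genes printed outside the rule (those over 2-fold against the high cells or between members with and without Cstdc4, and Retnlg, Il1r2, Fth1, Isg15, Csf3r, Cxcr2, Hdc, G0s2 and Pglyrp1 by band) were chosen after their values were seen. Results for some genes are not reported here. Positions came from GENCODE M21 as deposited in the reference. Analyses used Python 3.11.15, numpy 2.4.6, scipy 1.17.1, pandas 2.3.3, Biopython 1.88 and matplotlib 3.10.9, and TMM factors came from edgeR 4.0.16 in R 4.3.3.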

Additional observations from a re-analysis of the deposited data

How the results depend on the processing

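With 1 library per time nothing here was checked against replicates, and no paired analysis was possible because each time has 1 library and no replicate numbers. The median member had 1540 UMIs, so a gene at 100 CPM gave most cells no UMI. Members were 17.5% of the 9 h neutrophils with a limit of 50 per 10000, 50.6% with a limit of 200, 21.0% with no UMI of Mmp8 or Ngp allowed and 29.7% after thinning to 1000 UMIs. The same rule took 65.4%, 80.03% and 49.0% of the 2 h neutrophils with the first 3 of these. The ratio of median depth, members to high cells, was 0.901, and 0.897 and 0.920 with limits of 50 and 200.

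The 55 genes higher than in the high cells were 97 with a limit of 200, 88 with no UMI of Mmp8 or Ngp, 11 without the 5% of cells with the most UMIs, 25 after thinning, 32 with TMM scaling, 17 with equal weight per cell, 96 with a pseudocount of 1, 83 with no filter, 16 with a filter at 100 CPM, 228 at 1.5-fold, 22 at 3-fold and 1 without cells with RNA of other types. Of the 55, 5 were again higher without the deepest cells. The 3 lower genes were 12 with TMM scaling, 24 at 1.5-fold and 5 each with at most 10% mitochondrial UMIs, with a pseudocount of 1 and with cells chosen on a random 50% of UMIs. Against 2 h the 210 higher genes were 77 with a filter at 100 CPM, 543 at 1.5-fold and 71 at 3-fold, and the 210 lower genes 81, 558 and 49.

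Log2 differences of MHC class II genes against the high cells changed sign without the deepest cells and without cells with RNA of other types: H2-Aa to -0.32 and -0.20, H2-Eb1 to -0.075 and -0.10, Cd74 to -0.073 and -0.10, and H2-Ab1 to -0.36 and -0.22. None of the 31 named genes past 2-fold against 2 h changed sign in 589 values over the alternatives. Many of these genes were named for their large ratios, and the alternatives reused the same 2 libraries. A change of sign was thus unlikely from the start. The cause of each move was not tested.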
